A study of Mus musculus with 14 samples.

Results

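A set of 10 mouse genes that mark macrophages was followed through the bulk RNA-seq of CT26 tumors, out of the 53801 genes in each tumor's table. They were chosen by name, as the growth factor Csf1 and its receptor Csf1r, the pan-macrophage genes Adgre1, Cd68, Itgam, and Lyz2, and the lipid-associated macrophage genes Trem2, Apoe, Gpnmb, and Spp1. The choice was made with earlier results of these data known. Each gene was found by its Ensembl identifier, and all 10 passed the filter on low counts that left 16287 genes for testing. CT26 cells come from a colon carcinoma of the Balb/c strain. Barcoded CT26 cells were placed under the skin of both flanks of female Balb/c mice that were 6 to 8 weeks old, with 250000 cells per site. From day 7 the mice received 5 intraperitoneal doses of 200 μg, 3 days apart, and tumors were taken 3 days after the last dose.

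The control IgG group received the antibody clone 2A3 and holds 5 tumors (14L, 14R, 16R, 17R, and 20R) from 4 mice. Both anti-PD-1 groups received clone 1A12, and they hold 5 responder tumors (24L, 26R, 30L, 30R, and 35L) from 4 mice and 4 non-responder tumors (29L, 32R, 33L, and 33R) from 3 mice. A tumor was placed in a responder group by its size at the end of treatment relative to control IgG tumors, so group and tumor size cannot be told apart. Mice 14, 30, and 33 gave both flank tumors, as read from the tumor numbers, so the p-values over tumors treat tumors of the same mouse as separate samples. The labels name no batch or date. Expected counts summed to between 33237744 and 48481461 per tumor, and the lowest count of any of the 10 genes in any tumor was 835, for Trem2.

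Non-responder tumor 33R stood apart. Its log2 CPM (read counts scaled by library size), relative to the mean of all tumors, fell with gene length by 0.232 per doubling, whereas the slopes of the other 13 tumors lay between -0.071 and 0.06. Values without 33R, and with each tumor's trend on gene length removed, are therefore given beside the results that rest on it. Checked against defining markers, the colon label of CT26 had Krt20 at means from 276 to 381 CPM by group, whereas Vil1 had means of at most 0.0856 CPM and Cdx2 of at most 0.57 CPM. These colon genes were picked from a list of 8 after their values were seen. Summed, the 8 had medians of 334 CPM in control IgG tumors, 433 in responders, and 335 in non-responders. The macrophage markers C1qa, C1qb, and C1qc had means from 272 to 350.1 CPM.

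Tissue macrophages depend on signals through the receptor tyrosine kinase CSF1R, whose ligands are CSF1 and IL-34. The pan-macrophage genes encode surface and lysosomal proteins that most macrophages carry: Adgre1 encodes the surface antigen F4/80, Cd68 a lysosomal glycoprotein, Itgam the integrin chain CD11b that monocytes and neutrophils also carry, and Lyz2 a lysozyme. Lipid-associated macrophages were described in fat and in tumors as cells that take up lipid, in which the lipid receptor TREM2 signals through the adaptor encoded by Tyrobp, and Apoe, Gpnmb, and Spp1 are highly expressed. Tumor cells and fibroblasts can also express Csf1, Apoe, and Spp1. In bulk RNA the cell that made a transcript is not known, and fewer cells of a type cannot be told apart from less RNA per cell.

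Lyz2 has a close paralog beside it on chromosome 10, Lyz1, and the start of both coding sequences is shown because the division of reads between them bears on the Lyz2 values. The 2 coding sequences have 444 bases each and differ at 22 of them (95% identity). The first 150 coding bases are given from the GENCODE M21 transcripts on GRCm38, minus strand, with the 14 differing bases in capitals. These bases lie in exons within chr10:117280792-117282242 for Lyz2 and chr10:117291180-117292838 for Lyz1.
Lyz2: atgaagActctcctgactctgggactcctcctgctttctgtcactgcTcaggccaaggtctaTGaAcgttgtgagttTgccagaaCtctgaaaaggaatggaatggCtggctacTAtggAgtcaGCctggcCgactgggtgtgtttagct
Lyz1: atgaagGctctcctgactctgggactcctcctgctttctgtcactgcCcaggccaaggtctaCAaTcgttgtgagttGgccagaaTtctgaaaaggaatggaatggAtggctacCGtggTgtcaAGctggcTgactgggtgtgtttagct
The longest run of identical coding bases was 118. Over the whole transcripts, none of the 1167 windows of 150 bases in Lyz2 occurred in Lyz1, whereas 15.4% of its windows of 50 bases did.

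Promoter sequences are shown for Csf1 and Trem2, 2 genes that passed the test in a comparison described below. The 250 bases before the start site were taken from RefSeq (GRCm38.p6), 5′ to 3′ in the direction of transcription. Capitals mark matches on either strand to AGGAAG, the core of sites for the macrophage factor PU.1.
Csf1, chr3:107760470-107760719, minus strand: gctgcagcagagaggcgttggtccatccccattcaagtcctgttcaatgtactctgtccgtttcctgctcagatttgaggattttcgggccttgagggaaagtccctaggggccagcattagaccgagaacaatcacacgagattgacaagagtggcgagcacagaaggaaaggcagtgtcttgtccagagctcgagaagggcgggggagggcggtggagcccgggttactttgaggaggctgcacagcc
Trem2, chr17:48346151-48346400, plus strand: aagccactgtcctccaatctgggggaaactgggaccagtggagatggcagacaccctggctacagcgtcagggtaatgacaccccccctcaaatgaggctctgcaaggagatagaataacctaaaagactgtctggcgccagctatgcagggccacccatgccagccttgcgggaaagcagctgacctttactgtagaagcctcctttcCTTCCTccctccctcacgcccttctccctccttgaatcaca
The search covered 11 RefSeq promoters of 8 of the 10 genes. No promoter of Csf1r or Adgre1 was searched, so the counts that follow do not cover them. AGGAAG occurred in 6 of the 11, among them Trem2 from position -41, against 29.5% of the 32851 promoters in the table. It was not found in this window of Csf1. The AP-1 motif TGANTCA occurred in 2 of the 11, Cd68 and Trem2, against 6.75% of all promoters, and the E-box CACGTG in 0 of the 11, against 6.02%. Both strands were searched, and the matches in Trem2 did not overlap each other.

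Per length, the 10 genes spanned more than 2 orders of magnitude. In control IgG tumors Spp1 was highest, at 6099 ± 992 TPM, a level scaled to transcript length and library (SD, n = 5), followed by Lyz2 at 2036 ± 74.7 TPM, Apoe at 1543 ± 124 TPM, and Cd68 at 129 ± 10.2 TPM. Csf1 (71.2 ± 6.33), Itgam (65.1 ± 9.68), Csf1r (61.9 ± 6.67), and Trem2 (56.8 ± 4.57) came next, and each of these overlapped its neighbour in TPM. Adgre1 at 46.2 ± 3.18 TPM and Gpnmb at 17.4 ± 4.83 TPM were lowest.

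**Figure D1:**
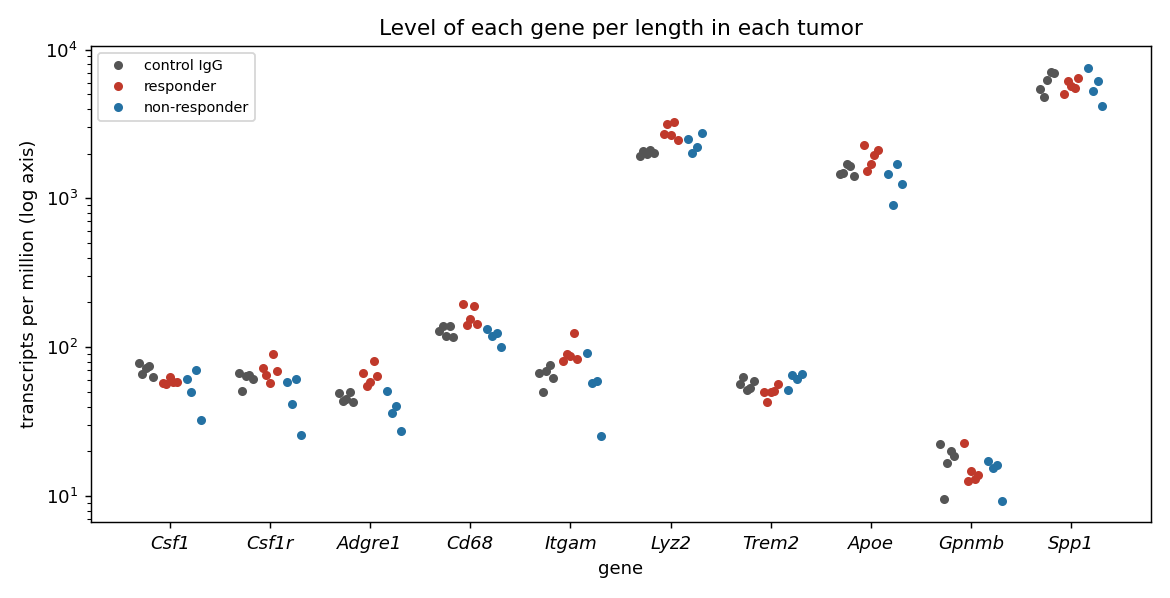
Level of each of the 10 genes in TPM (log axis) in every tumor, with control IgG in grey, responders in red, and non-responders in blue. Spp1, Lyz2, Apoe, and Cd68 held the first 4 places in each group and Gpnmb the last, and the places between were taken in a different order in each group.

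In responders Itgam (93.3 ± 17.4 TPM), Csf1r (70.8 ± 12), Adgre1 (65.2 ± 10.2), Csf1 (59.1 ± 2.58), and Trem2 (50.1 ± 4.80) stood in that order, again with overlap between neighbours (n = 5). In non-responders Trem2 stood at 60.9 ± 6.53 TPM, Itgam at 58.7 ± 27.1, Csf1 at 53.7 ± 16.2, Csf1r at 46.9 ± 16.5, and Adgre1 at 38.8 ± 9.76, each overlapping the next (n = 4). The spread between non-responders was wide for Itgam, with a coefficient of variation of 46.1% in TPM, against 14.9% in control IgG tumors and 18.7% in responders.

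Between responders and control IgG tumors, Csf1 was lower and Adgre1 was higher in responders, and the other 8 genes did not pass the test (edgeR's quasi-likelihood test on all 14 tumors with Benjamini-Hochberg adjustment over 16287 genes, threshold 0.05). Of all genes tested, 13.2% passed in this comparison, 7.88% higher and 5.3% lower, so that 2 of 10 is near the background. The median log2 fold change of the 10 was 0.12, against -0.01 over all genes. In 4 of the 10 (Csf1, Adgre1, Lyz2, and Trem2) the 2 groups did not overlap in CPM, against 15.1% of all genes tested. Without 33R, which shares in the estimate of the spread, 4 of the 10 passed, with Lyz2 higher and Trem2 lower in addition, and in that fit 20.5% of all genes tested passed.

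**Figure D2:**
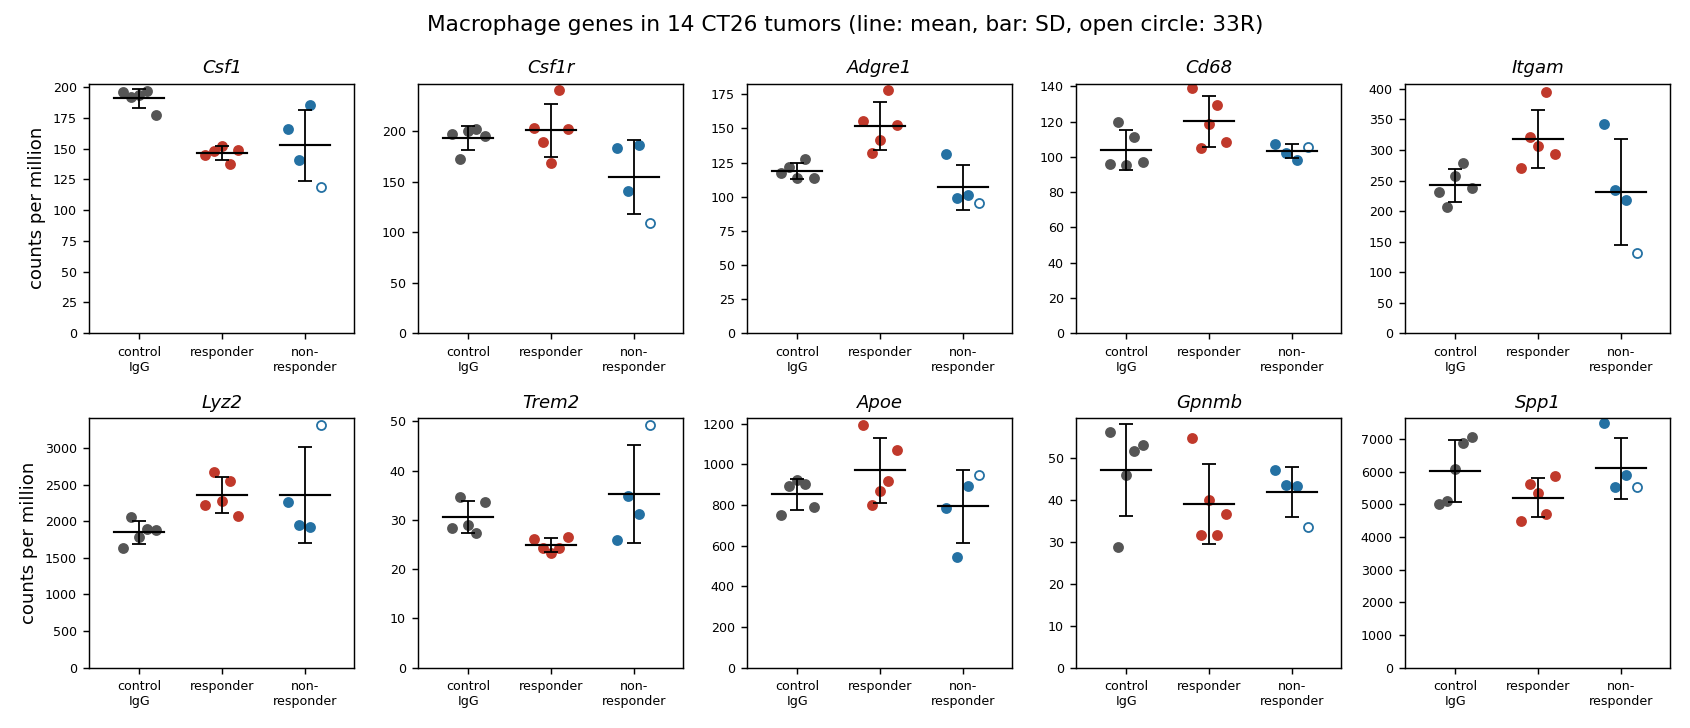
CPM of each gene in every tumor, by group, with the mean (line) and SD (bar), and 33R as an open circle. All 5 responders lay below all 5 control IgG tumors for Csf1 and Trem2, and above them for Adgre1 and Lyz2.

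Between responders and non-responders, Adgre1 was higher and Trem2 lower in responders, again 2 of 10. Of all genes tested, 9.9% passed, 5.08% higher and 4.82% lower in responders. The 10 genes had a median log2 fold change of 0.11, against 0.01 over all genes. Adgre1 alone had no overlap between these groups, against 12.8% of all genes. Without 33R, 1 of the 10, Adgre1, passed, and 4.8% of all genes tested did.

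Between non-responders and control IgG tumors, none of the 10 passed. No gene of the 16287 did (0.0%) in edgeR's test, 758 had an unadjusted p under 0.05, and DESeq2 called 18 genes, none of the 10. At that unadjusted level 3 of the 10 stood, and in none did the groups separate, against 1.25% of all genes. These 3 were Csf1 (log2 fold change of non-responders -0.32 ± 0.10), Csf1r (-0.32 ± 0.14), and Lyz2 (0.35 ± 0.14), each with an adjusted p of 0.931 in edgeR. Without 33R the value of Lyz2 was 0.13, that of Csf1 -0.23, and that of Csf1r -0.20. The 3 comparisons share tumors, so their values are given side by side and not as separate evidence.

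**Figure D3:**
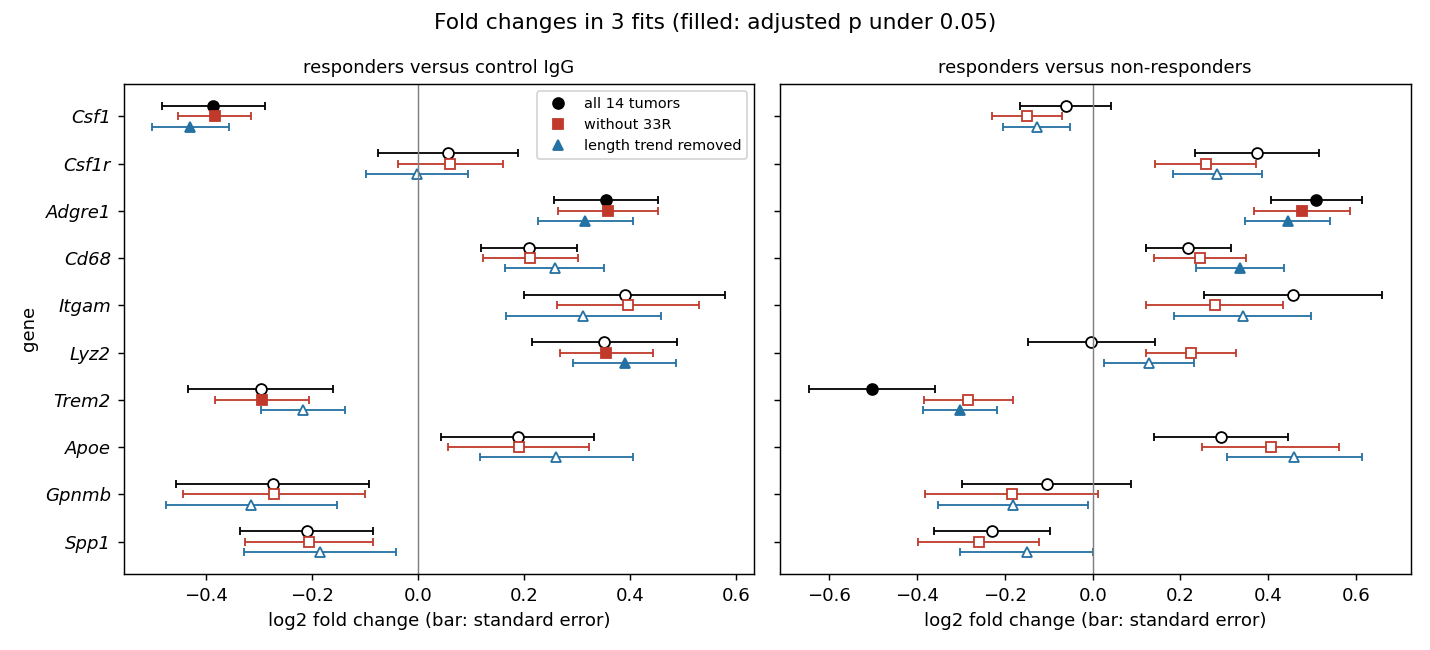
Log2 fold change (bar, standard error) of each gene in responders over control IgG tumors (left) and over non-responders (right), with all 14 tumors (circles), without 33R (squares), and with the length trend of each tumor removed (triangles). Filled symbols have an adjusted p under 0.05, as for Adgre1 in all 3 fits on both sides and for Csf1 in all 3 on the left.

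Csf1 (chr3:107741048-107760469, minus strand) encodes the main growth factor of macrophages. Its level in control IgG tumors was 196 CPM in 14L, 192 in 14R, 194 in 16R, 196 in 17R, and 177 in 20R. Responders had 145 CPM in 24L, 148 in 26R, 152 in 30L, 137 in 30R, and 149 in 35L. Non-responders had 166 CPM in 29L, 140.4 in 32R, 185 in 33L, and 118 in 33R. Every responder was lower than every control IgG tumor, and non-responders overlapped both groups. In responders Csf1 fell by 0.39 ± 0.10 on the log2 scale (SE) relative to control IgG tumors, a fold of 0.765 (adjusted p = 0.0191, edgeR). Without 30R the adjusted p was 0.051, and on the scale log2(TPM + 1) the difference was -0.26 (limma, adjusted p = 0.307). Against non-responders the log2 fold change was -0.06 ± 0.10 (adjusted p = 0.742), with a 95% interval from -0.29 to 0.17 on 11 residual degrees of freedom.

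Csf1r (chr18:61100598-61132149, plus strand), the receptor, did not pass edgeR's test in any comparison. It was at 198 CPM in 14L, 172 in 14R, 199.8 in 16R, 202 in 17R, and 195 in 20R in the control IgG group. Responders had 203 CPM in 24L, 189.5 in 26R, 169 in 30L, 241 in 30R, and 203 in 35L. The ranges of these groups overlapped, and responder 30L was below every control IgG tumor. Non-responders had 183 CPM in 29L, 141 in 32R, 186 in 33L, and 109.5 in 33R. Responders over control IgG tumors had a log2 fold change of 0.06 ± 0.13 (adjusted p = 0.825), with a 95% interval from -0.235 to 0.347, and with the length trend removed it was -0.00. Over non-responders it was 0.38 ± 0.14 (adjusted p = 0.101) and without 33R 0.26 (adjusted p = 0.209, edgeR). The value passed with the mouse as a random effect in limma-voom (0.41, adjusted p = 0.0315). The within-mouse correlation in that fit was -0.282. A negative value does not count flank tumors of the same mouse as less than separate samples.

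The 2 genes of the axis differed in their ratio within a tumor. Csf1 stood at 1.15 ± 0.101 TPM per TPM of Csf1r in control IgG tumors (SD, n = 5), at 0.856 ± 0.164 in responders (n = 5), and at 1.16 ± 0.0896 in non-responders (n = 4). The lowest control IgG tumor had 1.03 and the highest responder 1.11, so these groups overlapped. Il34, the other ligand of the receptor, was at 35.4 ± 4.87 CPM in control IgG tumors, 42.5 ± 3.62 in responders, and 38.7 ± 4.67 in non-responders. Responders exceeded control IgG tumors in Il34 by 0.26 ± 0.10 on the log2 scale (adjusted p = 0.112). In responders over control IgG tumors, 7.88% of all genes tested were called higher. Of the other ligands and receptors of colony stimulating factors, 6 of 7 were tested and 1 was called higher in responders than in control IgG tumors. That gene was Csf3r, the receptor of the granulocyte factor, at 17.3 ± 4.15 CPM against 9.04 ± 1.15 (log2 fold change 0.94, adjusted p = 0.00305, edgeR). Csf2ra and Csf2rb2, chains of the receptor of the granulocyte-macrophage factor, had log2 fold changes of 0.29 (adjusted p = 0.202) and 0.34 (adjusted p = 0.299). Against non-responders 2 of the 6 were called higher, and 1 without 33R. Of all genes tested, 5.08% were called higher against non-responders, and without 33R 4.8% were called in either direction.

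Adgre1 (chr17:57358691-57483527, plus strand) was the 1 gene of the 4 pan-macrophage genes that passed in edgeR's test on all 14 tumors with no length correction. Control IgG tumors had 118 CPM in 14L, 122 in 14R, 114 in 16R, 127 in 17R, and 113 in 20R. Responders had 155 CPM in 24L, 132 in 26R, 142 in 30L, 178 in 30R, and 153 in 35L. Every responder was higher than every other tumor. Non-responders had 131 CPM in 29L, 99.3 in 32R, 101 in 33L, and 95.5 in 33R, so that responder 26R and non-responder 29L lay next to each other across the group border. The log2 fold change was 0.35 ± 0.10 over control IgG tumors (adjusted p = 0.0278) and 0.51 ± 0.10 over non-responders (adjusted p = 0.0132, edgeR), folds of 1.28 and 1.42. The second call was kept in all 9 alternatives of processing and without each of the 14 tumors. The first was kept in all 9 alternatives and lost without 14L (adjusted p = 0.0507), 16R (0.0626), 20R (0.0744), 24L (0.0662), or 30R (0.0755).

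Cd68 (chr11:69664213-69666153, minus strand) did not pass. Control IgG tumors had 95.9 CPM in 14L, 120.0 in 14R, 95.6 in 16R, 111 in 17R, and 96.9 in 20R, and responders 139 in 24L, 105 in 26R, 119 in 30L, 129.6 in 30R, and 108 in 35L. Non-responders had 107 CPM in 29L, 102 in 32R, 98.1 in 33L, and 106 in 33R. The groups overlapped. Responders were above control IgG tumors by 0.21 ± 0.09 (adjusted p = 0.146) and above non-responders by 0.22 ± 0.10 (adjusted p = 0.159) on the log2 scale. Cd68 passed in both comparisons on the scale log2(TPM + 1), by 0.35 (adjusted p = 0.0487) and 0.46 (adjusted p = 0.0197) in limma, and against non-responders with the length trend removed, by 0.34 (adjusted p = 0.0409, edgeR). Against control IgG tumors it also passed with 33R left out and the length trend removed, by 0.26 (adjusted p = 0.0425, edgeR).

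Itgam (chr7:128062640-128118491, plus strand) had control IgG values of 231 CPM in 14L, 206 in 14R, 257 in 16R, 278 in 17R, and 237 in 20R. Responders had 270.4 CPM in 24L, 321 in 26R, 307 in 30L, 396 in 30R, and 293 in 35L, and 1 of them, 24L, was within the control IgG range. Non-responders had 342 CPM in 29L, 234 in 32R, 218 in 33L, and 130.5 in 33R, so that they reached both below the control IgG group and above most responders. Responders had a log2 fold change of 0.39 ± 0.19 over control IgG tumors (adjusted p = 0.198) and 0.46 ± 0.20 over non-responders (adjusted p = 0.16, edgeR). The first passed when the 2 groups were fitted alone (0.40, adjusted p = 0.0291), and the second without 29L (0.71, adjusted p = 0.0258) and with the mouse as a random effect in limma-voom (0.61, adjusted p = 0.0412). The limma-voom fit is the one with the negative within-mouse correlation given above. The neutrophil markers, which could share Itgam with macrophages, had 0 of 5 genes tested called in either comparison. Their median log2 fold change of responders was -0.51 over control IgG tumors and -0.64 over non-responders. Ly6g was at a mean of at most 0.067 CPM in each group, but other neutrophil genes were present. By group (control IgG, responder, non-responder), S100a8 had means of 8.24, 4.56, and 8.15 CPM. In the same order S100a9 had 15.4, 9.51, and 15.2 CPM, and Mmp8 1.98, 2.55, and 2.44 CPM. The part of neutrophils in the Itgam values was not tested.

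Lyz2 (chr10:117277331-117282321, minus strand) was at 1633 CPM in 14L, 2053 in 14R, 1786 in 16R, 1893 in 17R, and 1876 in 20R in control IgG tumors. Responders had 2215 CPM in 24L, 2676 in 26R, 2278 in 30L, 2546 in 30R, and 2077 in 35L, each above every control IgG tumor. Non-responders had 2264 CPM in 29L, 1948 in 32R, 1921 in 33L, and 3319 in 33R, the highest of all 14 tumors. The log2 fold change of responders over control IgG tumors was 0.35 ± 0.14 and did not pass (adjusted p = 0.106), whereas without 33R it was 0.36 (adjusted p = 0.0134) and with the length trend removed 0.39 (adjusted p = 0.0129, edgeR). Over non-responders it was -0.00 ± 0.15 (adjusted p = 0.993), and without 33R 0.22 (adjusted p = 0.221).

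Lyz1, whose coding sequence is shown above beside that of Lyz2, took a small share of the reads of the pair. Control IgG tumors had 5.40 CPM in 14L, 4.51 in 14R, 4.94 in 16R, 5.16 in 17R, and 4.30 in 20R, and responders 17.5 in 24L, 21.7 in 26R, 24.8 in 30L, 21.9 in 30R, and 11.5 in 35L. Non-responders had 10.4 CPM in 29L, 9.43 in 32R, 13.8 in 33L, and 18.1 in 33R. Every tumor under anti-PD-1 was above every control IgG tumor. The log2 fold change over control IgG tumors was 2.0 ± 0.21 in responders (adjusted p = 0.000252) and 1.41 ± 0.22 in non-responders (adjusted p = 0.0683, edgeR). Of the counts of both genes, Lyz1 had between 0.219% and 0.329% in control IgG tumors, between 0.551% and 1.08% in responders, and between 0.458% and 0.713% in non-responders. The share differed between groups, so the Lyz1 values were not a fixed fraction of those of Lyz2. How many Lyz1 reads came from Lyz2 transcripts was not tested.

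Trem2 (chr17:48346401-48354147, plus strand), whose promoter is shown above, was the 1 gene of the 4 in the lipid-associated group that passed in edgeR's test on all 14 tumors with no length correction. Control IgG tumors had 28.4 CPM in 14L, 34.6 in 14R, 29.0 in 16R, 27.3 in 17R, and 33.5 in 20R. Responders had 26.1 CPM in 24L, 24.3 in 26R, 23.2 in 30L, 24.3 in 30R, and 26.5 in 35L, each below every control IgG tumor. Non-responders had 26.0 CPM in 29L, 34.8 in 32R, 31.1 in 33L, and 49.3 in 33R, and 29L lay within the responder range. Trem2 fell by 0.50 ± 0.14 in responders relative to non-responders on the log2 scale (adjusted p = 0.041, edgeR), a fold of 0.706. The value rested on 33R, without which it was -0.28 (adjusted p = 0.12). With the length trend removed and 33R kept it was -0.30 (adjusted p = 0.0321), and with both changes -0.24 (adjusted p = 0.1). Of the 9 alternatives, 4 kept the call. It was also lost without 14L (0.0508), 16R (0.0532), 17R (0.0539), 20R (0.0504), 24L (0.0802), 26R (0.0661), 30L (0.0789), 30R (0.0873), 32R (0.0816), or 35L (0.0573), the values being adjusted p. Relative to control IgG tumors the log2 fold change was -0.30 ± 0.14 (adjusted p = 0.171), and without 33R -0.29 (adjusted p = 0.0326).

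Per TPM of Cd68, Trem2 stood at 0.442 ± 0.042 in control IgG tumors (SD, n = 5), 0.309 ± 0.0547 in responders (n = 5), and 0.52 ± 0.113 in non-responders (n = 4). The lowest control IgG tumor had 0.385 and the highest responder 0.393, so that these groups overlapped by a narrow margin. Tyrobp, the adaptor of the receptor, was at 77.8 ± 6.97 CPM in control IgG tumors and 95 ± 8.10 in responders, with a log2 fold change of 0.29 (adjusted p = 0.114). Over non-responders it was 0.15 (adjusted p = 0.447, edgeR). Without 33R Tyrobp passed in both, by 0.29 over control IgG tumors (adjusted p = 0.0164) and 0.33 over non-responders (adjusted p = 0.0462, edgeR).

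Apoe (chr7:19696109-19699188, minus strand) encodes the lipid carrier apolipoprotein E. Control IgG tumors had 749.8 CPM in 14L, 894 in 14R, 925 in 16R, 904 in 17R, and 791 in 20R, and responders 1194 in 24L, 802 in 26R, 872 in 30L, 917 in 30R, and 1071 in 35L. Non-responders had 787 CPM in 29L, 543 in 32R, 893 in 33L, and 950.5 in 33R. The groups overlapped, with the highest tumors among responders and the lowest among non-responders. Apoe in responders had a log2 fold change of 0.19 ± 0.14 over control IgG tumors (adjusted p = 0.43) and 0.29 ± 0.15 over non-responders (adjusted p = 0.231). On the scale log2(TPM + 1) the second was 0.56 and passed (limma, adjusted p = 0.0357).

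The ratio of Apoe to Trem2 separated responders from the other tumors. Per TPM of Trem2, Apoe stood at 27.4 ± 4.24 in control IgG tumors, 38.3 ± 4.63 in responders, and 22.1 ± 7.01 in non-responders. The 5 responders lay between 34.2 and 46.0, above the control IgG tumors (23.6 to 33.0) and above the non-responders (13.8 to 28.0). This ratio was formed after the values were seen and was not tested.

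Gpnmb (chr6:49036546-49070929, plus strand) encodes a membrane glycoprotein that melanocytes and osteoclasts also carry. Control IgG tumors had 56.1 CPM in 14L, 28.9 in 14R, 46.0 in 16R, 51.7 in 17R, and 53.0 in 20R, responders 54.8 in 24L, 31.7 in 26R, 40.1 in 30L, 31.8 in 30R, and 36.6 in 35L, and non-responders 47.2 in 29L, 43.6 in 32R, 43.4 in 33L, and 33.5 in 33R. The ranges of the groups overlapped. Gpnmb in responders had a log2 fold change of -0.27 ± 0.18 over control IgG tumors (adjusted p = 0.357), with a 95% interval from -0.67 to 0.13, and -0.105 ± 0.193 over non-responders (adjusted p = 0.765). Tyr, Dct, Mlana, and Tyrp1, which define melanocytes, each had a group mean of at most 0.16 CPM, and Pmel, the other melanocyte gene of the list, had means from 0.26 to 0.355 CPM. Osteoclast genes were present, with Ctsk at 25.1 ± 7.06 CPM in control IgG tumors, 30.4 ± 19.4 in responders, and 59.1 ± 38.9 in non-responders, and Mmp9 at means of 26.0, 29.7, and 48.3 CPM in the same order. Summed, the 6 osteoclast genes had 39.8 to 74.9 CPM in control IgG tumors, while responders had 31.2 to 129 CPM and non-responders 42.7 to 184 CPM, with Calcr, Dcstamp, and Oscar at means of at most 0.6 CPM. Their part in the Gpnmb values was not tested.

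Spp1 (chr5:104435118-104441050, plus strand) encodes the secreted protein osteopontin and was the highest of the 10 in each tumor. Control IgG tumors had 5020.5 CPM in 14L, 5095 in 14R, 6087 in 16R, 6866 in 17R, and 7064 in 20R. Responders had 4487 CPM in 24L, 5635 in 26R, 5342 in 30L, 4708 in 30R, and 5877 in 35L, and non-responders 7483 in 29L, 5541 in 32R, 5900.3 in 33L, and 5519 in 33R. The 3 groups overlapped. The log2 fold change of responders was -0.21 ± 0.13 over control IgG tumors (adjusted p = 0.298) and -0.23 ± 0.13 over non-responders (adjusted p = 0.274, edgeR).

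Within groups, no gene of the 9 passed a test of correlation with Csf1r after adjustment. The deviations of log2 CPM from the group mean were correlated over 14 tumors, with 100000 permutations within groups (two-sided) and adjustment over the 9 relations. Itgam had the highest Pearson's r, 0.776 (permutation p = 0.023, adjusted p = 0.138), with Spearman's rho 0.622 (p = 0.0404, adjusted p = 0.121). Adgre1 had r = 0.635 (permutation p = 0.0758, adjusted p = 0.227) and rho = 0.618 (p = 0.0271, adjusted p = 0.121). Csf1 had r = 0.676 (permutation p = 0.147, adjusted p = 0.274) and rho = 0.534 (p = 0.189, adjusted p = 0.425). Trem2 went the other way, with r = -0.743 (permutation p = 0.0306, adjusted p = 0.138) and rho = -0.714 (p = 0.0212, adjusted p = 0.121).

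**Figure D4:**
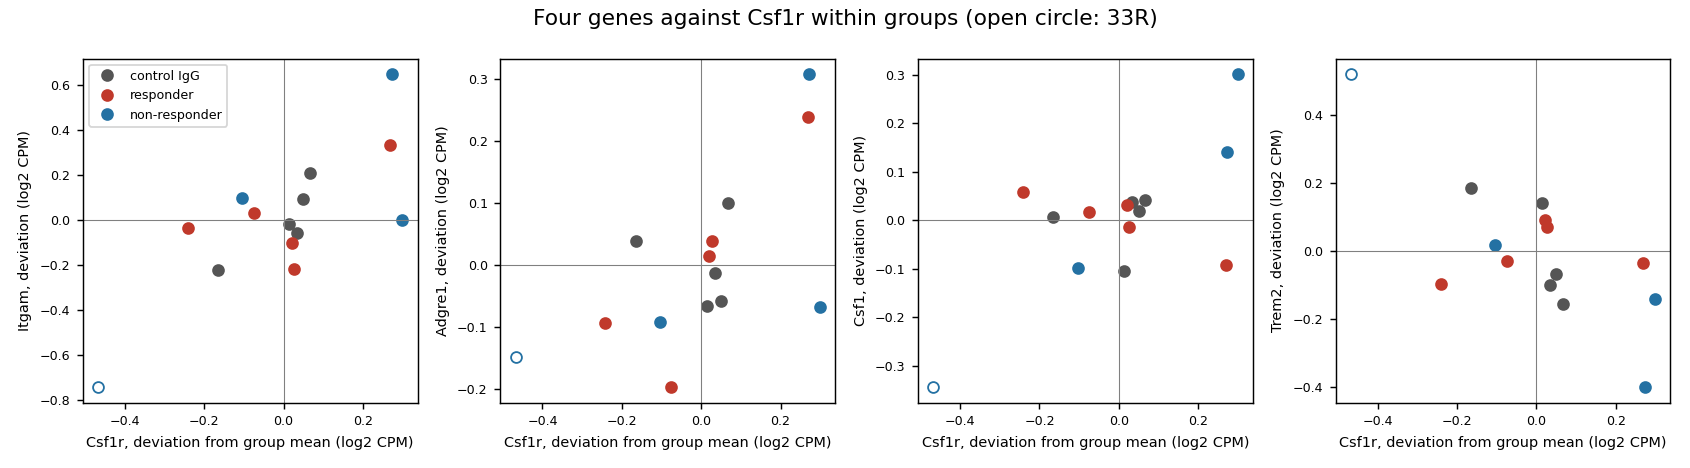
Deviation of Itgam, Adgre1, Csf1, and Trem2 from the group mean (log2 CPM) against that of Csf1r in the 14 tumors, with control IgG in grey, responders in red, non-responders in blue, and 33R as an open circle. Tumor 33R lies at the far left of each panel, low for Itgam and Csf1 and high for Trem2.

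The other 5 had r between -0.563 (Lyz2, rho = -0.349, permutation p = 0.206, adjusted p = 0.309) and 0.352 (Gpnmb, rho = 0.341, permutation p = 0.152, adjusted p = 0.274). Cd68 had r = -0.028 and rho = 0.046, Apoe r = 0.036 and rho = 0.209, and Spp1 r = 0.268 and rho = 0.191, with permutation p from 0.426 to 0.946 (adjusted p from 0.548 to 0.946). The 2 tumors farthest from the median of Csf1r were 33L and 33R. With both dropped, r was 0.723 for Itgam, 0.79 for Adgre1, 0.091 for Csf1, -0.501 for Trem2, and 0.058 for Lyz2. The deviations behind these r were still taken from group means that included both tumors. They therefore cannot show which relations rested on the pair. Without 33R alone (n = 13), the group means were taken anew. In that setting r was 0.505 for Itgam, 0.599 for Adgre1, 0.279 for Csf1, -0.406 for Trem2, and 0.059 for Lyz2. The values of Itgam and Trem2 were thus weaker without 33R but kept their sign, with rho of 0.401 and -0.549. Those of Csf1 (rho = 0.302) and Lyz2 (rho = -0.049) depended on 33R more strongly. With the length trend removed (n = 14), r was 0.583 for Itgam, 0.543 for Adgre1, 0.352 for Csf1, and -0.35 for Trem2. The lowest adjusted permutation p of r was 0.542 without 33R and 0.414 with the trend removed. After averaging within each mouse (n = 11), r was 0.764 for Itgam, 0.871 for Adgre1, and -0.793 for Trem2, with an adjusted permutation p of 0.22 each.

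The genes whose pattern over all 14 tumors was most like that of Csf1r, Trem2, and Spp1 were named among 10122 genes with a mean log2 CPM of at least 3, as a description with no test, since tumors share depth and length trends. For Csf1r these were P2rx7 (Pearson's r = 0.938), Ap1b1 (0.927), Smad1 (0.919), Fnbp1 (0.913), and Cd93 (0.91). P2rx7 encodes a channel gated by ATP, and Cd93 a receptor of endothelial and myeloid cells. Without 33R their r was between 0.771 and 0.839. For Trem2 they were B3gat3 (0.967), Bag1 (0.965), Dpm3 (0.959), Cox8a (0.956), and Nenf (0.955), with effective lengths from 131.3 to 1326 bases, and without 33R r was between 0.894 and 0.949. Trem2 itself had an effective length of 618.1 bases. For Spp1 they were Asah1 (0.935), an acid ceramidase of lysosomes, Mia2 (0.912), Adss (0.881), Utp14a (0.877), and Pyroxd1 (0.875), with r between 0.878 and 0.944 without 33R.

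Other genes of the same pathways were called higher in responders more often than lower, against 7.88% higher and 5.3% lower of all genes in responders over control IgG tumors. Over non-responders 5.08% of all genes were called higher and 4.82% lower. These lists, and those of other cells below, were chosen with earlier results of these data known. Their counts are therefore a description and not a test against all genes. Of 11 adaptors and signaling genes downstream of CSF1R and TREM2, 4 were called higher and 0 lower in responders than in control IgG tumors, with a median log2 fold change of 0.35 against -0.01 over all genes. Pik3cd, a catalytic subunit of PI3 kinase, was at 44.6 ± 6.90 CPM against 27.9 ± 1.70 (log2 fold change 0.68, adjusted p = 0.00135), Plcg2, a phospholipase, at 29.3 against 19.4 (0.59, adjusted p = 0.0206), and Syk, the kinase that Tyrobp recruits, at 55.6 against 41.4 (0.42, adjusted p = 0.0329). Maf, a transcription factor of macrophages, had 0.36 (adjusted p = 0.0539). Against non-responders 5 of the 11 were called higher and 0 lower, with a median of 0.35. Without 33R, 7 were called higher against control IgG tumors and 4 against non-responders, and 0 lower, while 20.5% and 4.8% of all genes were called.

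Of 24 other pan-macrophage and monocyte genes, 23 were tested, and 8 were called higher and 1 lower in responders than in control IgG tumors, with a median of 0.35. Ly6c2, a marker of inflammatory monocytes, was at 37.9 ± 16.6 CPM against 11.7 ± 6.15 (log2 fold change 1.69, adjusted p = 0.00665), Plac8 at 202 against 99.9 (1.01, adjusted p = 0.00485), and Itgb2, the integrin chain that pairs with CD11b, at 187 against 96.1 (0.96, adjusted p = 0.00189). Cx3cr1, the fractalkine receptor, fell by 1.14 on the log2 scale (adjusted p = 0.0208), from 20.1 ± 5.97 to 9.12 ± 3.65 CPM. Against non-responders 5 were called higher and 1 lower, with a median of 0.30. Without 33R, 11 and 1 were called against control IgG tumors and 7 and 1 against non-responders, while 20.5% and 4.8% of all genes were called.

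Of 25 other lipid-associated macrophage genes, 6 were called higher and 0 lower in responders than in control IgG tumors, with a median of 0.32. Nr1h3, which encodes the sterol sensor LXRα, was at 14.7 ± 5.52 CPM in responders, 4.25 ± 0.761 in control IgG tumors, and 7.70 ± 1.79 in non-responders (log2 fold change 1.78 over control IgG tumors, adjusted p = 0.000991). Abcg1, a cholesterol exporter, was at 40.8 against 20.4 (1.0, adjusted p = 0.00537), and Psap, which encodes the saposins, at 2041 against 1263 (0.69, adjusted p = 0.00375). Lpl, lipoprotein lipase, had 1.06 (adjusted p = 0.0587). Against non-responders 5 were called higher and 0 lower, with a median of 0.06, and the log2 fold change was positive in 13 and negative in 12. Without 33R, 8 were called higher and 2 lower against control IgG tumors, and 4 higher and 0 lower against non-responders. In those fits 20.5% and 4.8% of all genes were called.

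**Figure D5:**
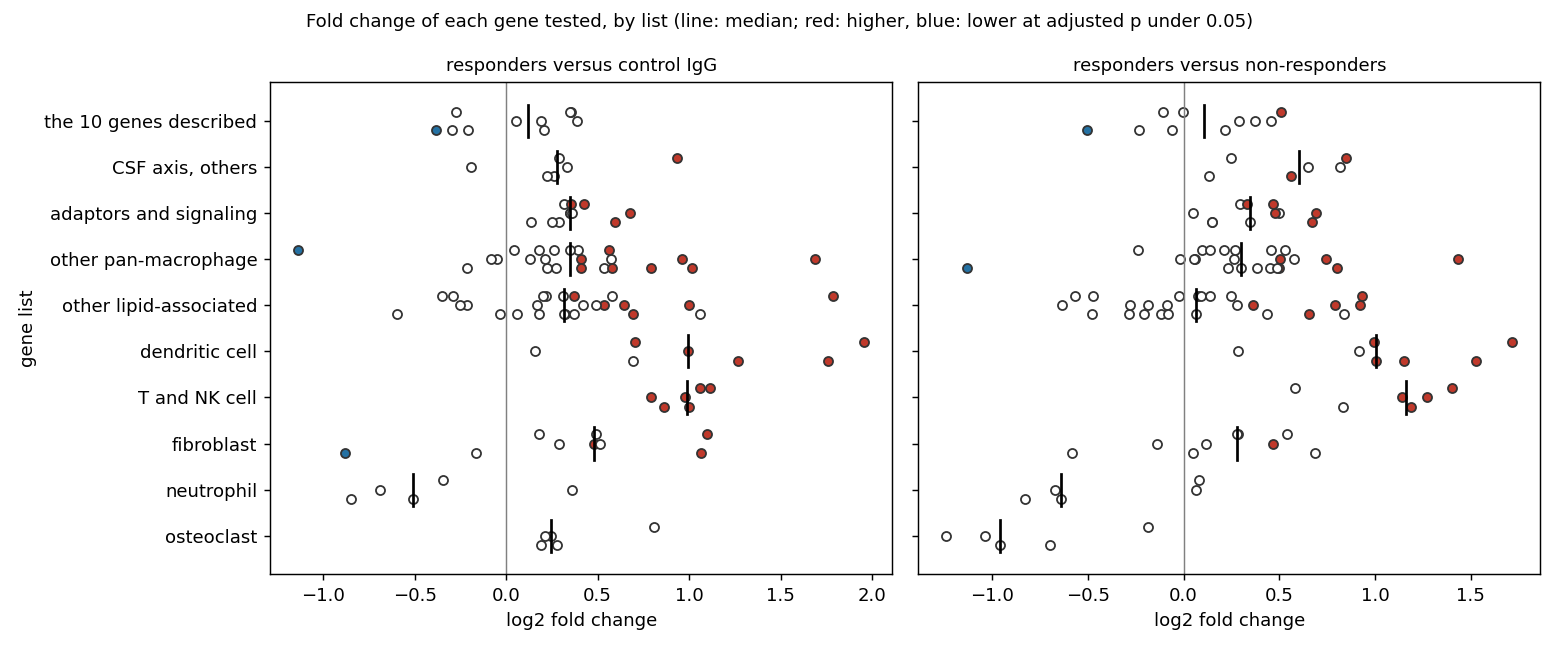
Log2 fold change of each gene tested (points) and the median (line) by gene list, in responders over control IgG tumors (left) and over non-responders (right), with genes at an adjusted p under 0.05 in red (higher) and blue (lower). The medians of dendritic cell and of T and NK cell genes lay near 1 on both sides.

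Of the markers of other cells, those of T and NK cells and of dendritic cells were mostly called higher in responders. Of all genes tested, 7.88% were called higher than in control IgG tumors and 5.08% higher than in non-responders. All 6 T and NK cell genes were called higher in responders than in control IgG tumors, with a summed level of 36.7 to 61.7 CPM against 16.8 to 32.3, and 4 of 6 were called against non-responders (20.0 to 24.5 CPM). Of 7 dendritic cell genes, 5 were called higher in each comparison, with sums of 24.6 to 36.3 CPM in responders, 13.2 to 20.5 in control IgG tumors, and 14.2 to 16.4 in non-responders, and without 33R 6 and 4 were called. Of 9 fibroblast genes, 3 were called higher and 1 lower against control IgG tumors, with sums of 2910.5 to 4869 CPM in responders, 2433 to 3124.5 in control IgG tumors, and 2348 to 4397 in non-responders, and of 5 endothelial genes 1 was called higher. Of the osteoclast (5 tested), melanocyte (1 tested), adipocyte (5), epidermis (6), and skeletal muscle (5) genes none was called in either comparison, and of 7 colon epithelium genes tested 1, Cdx2, was called lower against control IgG tumors. The part of these other cells in the values of the 10 genes was not tested. Nor was it tested for the lists of signaling, pan-macrophage, and lipid-associated genes above, whose genes other leukocytes may also express.

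Flank tumors of the same mouse differed in the 10 genes. The absolute difference in log2 CPM between the flanks had a median over the 10 genes of 0.226 in mouse 14, 0.172 in mouse 30, and 0.51 in mouse 33, and with the length trend removed 0.112, 0.172, and 0.345. In mouse 33 the right tumor was lower by 0.767 for Csf1r and higher by 0.789 for Lyz2. In mouse 14 the largest difference was 0.957, for Gpnmb.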

How the data were processed

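RNA-seq was read from 1 deposited table for each of 14 CT26 tumors. The authors aligned the reads with STAR and estimated expected counts per gene with RSEM on mm10, per the labels. The authors' deposited TPM values are these counts divided by effective length and scaled to a fixed sum by RSEM. Effective lengths were used for the length trend, and the authors' deposited FPKM values, which RSEM scales by length and mapped fragments, were not used. Symbols came from a reference list of gene names, with the GENCODE M21 name used where that list gave none. Together these named 53706 of 53801 genes. Positions came from GENCODE M21 on GRCm38. Expected counts were rounded, genes with low counts were removed with filterByExpr, and CPM were computed on TMM library sizes. All 14 tumors entered 1 fit of 3 groups with no covariate in edgeR 4.0.16 (R 4.3.3), with 95% intervals from its standard errors. Alternatives used DESeq2 1.42.0 and limma 3.58.1, the latter on log2(TPM + 1) and, as voom, with the mouse as a random effect. The length trend was a loess curve (span 0.5) of each tumor's log2 CPM deviations on log2 effective length, used as an offset. Likeness and correlations used log2 CPM with a prior count of 2. Genes named from a list were at most the 4 largest changes of responders over control IgG tumors among genes with a mean log2 CPM of at least 1, with Il34 and Lyz1 always named. Exceptions were the C1q genes, Krt20, Vil1, and Cdx2, Tyrobp, Ly6g, and the melanocyte genes, which were chosen after their values were seen. The 10 genes and the lists were chosen with earlier results of these data known. The fits were tested on simulated counts. With a length trend simulated in 33R, the edgeR fit without a length correction recovered fewer of the changed genes and made more false calls for responders over non-responders than the fit with the length offset, and the plot of fold changes gives both. The simulated trend was steeper than the slope of -0.232 seen in 33R, and no other tumor was given a trend. The size of that difference between fits therefore does not carry over to these data. A count of 0 would have allowed at most 9.03e-06% of a library, for counting error only.

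No pair of tumors in a group agreed within sampling noise (lowest chi-square per gene 20.5), so none was taken for a library deposited more than once. This does not make flank tumors of the same mouse independent samples. Mice were read from the tumor numbers, and p-values measure the spread between tumors.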

Additional observations from a re-analysis of the deposited data

Results flagged for a closer look

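Of 30 groups tested (10 genes in 3 groups, in CPM), 2 held a tumor that stood far from the others, and chance alone flags about 1 in 20 such groups. Csf1 in control IgG tumors was at 177.4 CPM in 20R, below the other 4, which lay between 192 and 196. The gap took 0.755 of the group's range. Csf1r in control IgG tumors was at 172.2 CPM in 14R, below the other 4, which lay between 195 and 202, with a gap of 0.771 of the range. Without 20R the log2 fold change of Csf1 in responders over control IgG tumors was -0.41 (adjusted p = 0.0326, edgeR), and without 14R that of Csf1r was 0.02 (adjusted p = 0.946).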

How the results depend on the processing

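Besides leaving out tumors, 8 alternatives were planned and 1 (33R left out and length trend removed) was added after seeing the data. Adgre1 kept its calls in all 9, and Csf1 its call in 8. Of all genes, responders against non-responders gave 2634 calls with DESeq2, 689 with only the 2 groups compared, 2973 with limma-voom and the mouse as a random effect, and 520 with 1 tumor per mouse, against 1612. The within-mouse correlation in the limma-voom fit was negative (-0.282), so that fit did not discount tumors of the same mouse. Responders against control IgG gave 3806 with 33R left out and length trend removed, against 2147, and non-responders against control IgG 18 with DESeq2 and 3 with no filter on low counts, against 0. Of the 10 genes, responders against control IgG gave 5 with only the 2 groups compared and 5 with 33R left out and length trend removed. Responders against non-responders gave 4 with limma-voom, and 1 with no filter, with only the 2 groups compared, with 1 tumor per mouse, or with 33R left out and length trend removed. In correlation with Csf1r, 4 passed on log2(TPM + 1): Csf1 (r = 0.841, adjusted permutation p = 0.0468), Adgre1 (0.882, 0.0137), Itgam (0.879, 0.0206), and Gpnmb (0.602, 0.0468). The cause was not tested for any of these.

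Leaving out 1 tumor gave 1190 to 3385 genes for responders against control IgG, 569 to 1978 against non-responders, and 0 to 5 for non-responders against control IgG. Of the 10 genes it gave 0 (without 30R) to 4 (without 33R), 1 to 3, and 0 to 0, and in correlation 0 to 0.

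Signs turned in values that did not pass. For Lyz2 in responders over non-responders the log2 fold change was 0.0133 with no filter, 0.0076 with 2 groups, 0.0096 with limma-voom, 0.19 with 1 tumor per mouse, 0.13 with the length trend removed, 0.28 on log2(TPM + 1), and 0.23 with 33R left out and length trend removed. On log2(TPM + 1) Csf1 had 0.19, Gpnmb 0.0765, and Spp1 0.0239. In responders over control IgG, Csf1r had -0.0538 with 1 tumor per mouse, -0.002 with the length trend removed, and -0.0015 with 33R also left out. In non-responders over control IgG, Cd68 had 0.028 and Itgam 0.0681 with 1 tumor per mouse, Itgam 0.0917 with 33R left out and length trend removed, and Spp1 -0.0341 with the length trend removed and -0.0914 on log2(TPM + 1). Leaving out 1 tumor gave Csf1r -0.0166 to 0.1128 (responders over control IgG), Csf1 -0.1493 to 0.0578 and Lyz2 -0.0856 to 0.2231 (over non-responders), and, in non-responders over control IgG, Cd68 -0.0369 to 0.0407, Itgam -0.317 to 0.1176, Trem2 -0.0105 to 0.3283, Apoe -0.2158 to 0.0405, and Spp1 -0.092 to 0.0836. No paired analysis was possible because the groups share no replicate numbers.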
